A study of Mus musculus with 6 samples.

Results

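Solute carriers are membrane proteins that move nutrients, metabolites and ions across the surface of a cell and across the membranes of its organelles, and their gene symbols begin with Slc and a family number. The genes described here were the 176 with such a symbol and at least 60 reads summed over 6 libraries; they were thus chosen by their measured counts, out of 355 rows with such a symbol and 23284 gene rows in all. The 8 carriers Slc4a1, Slc14a1, Slc11a2, Slc40a1, Slc25a37, Slc25a38, Slc25a39 and Slc7a11 were left out by name, and 171 had fewer reads. The minimum was applied to the sum over all libraries whatever their group, so a gene read almost wholly in one group could enter. Just inside it were Slc27a3 and Slc6a13 with 61 reads each, and Slc6a8 with 58 was among those just outside. A minimum of 30 reads would have given 198 genes and one of 120 reads 157 genes. The label held in so far as 171 of the 176 carry the symbol of a transporter family, while 5 (Slc4a1ap, Slc7a6os, Slc9a3r1, Slc9a3r2 and Slc2a4rg-ps) are named after a carrier and are not one.

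The libraries were made from polyadenylated RNA of mouse erythroblasts, immature red cells that still hold a nucleus, from C57BL/6 embryos at E10.5, with E for embryonic day. Live cells positive for Ter119, a red cell surface antigen, and for CD71, the transferrin receptor, had been sorted by flow cytometry. The Setd8 null group comprised 3 libraries of the genotype SETD8fl/fl EpoR Cre, in which Cre recombinase made from the erythropoietin receptor locus removes the floxed gene in erythroid cells. The control group comprised control 1 and control 3, which were Setd8 +/+ EpoRCre and so carried the same Cre, and control 2, which was Setd8 fl/fl EpoR WT and so had floxed alleles and no Cre. Setd8 encodes the enzyme that adds a single methyl group to a lysine of histone H4. The series asked how erythroblasts differ without it, and its title names chromatin condensation in maturing erythroblasts as the subject.

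Maturing erythroblasts import glycine and other amino acids for heme and globin synthesis, take up glucose by facilitated carriers of family 2, and release lactate with protons through family 16. Carriers of family 25 exchange nucleotides, phosphate and organic acids across the inner mitochondrial membrane. Families 30 and 39 move zinc and manganese out of and into the cytosol, and family 29 lets nucleosides equilibrate across the plasma membrane.

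Gene counts summed to between 7756940 and 21434719 reads per library, and values are given as CPM, counts scaled to a common library total that is adjusted for composition. The sample titles of control 1, control 2 and null 1 end without a letter (the unlettered set) and those of control 3, null 2 and null 3 end with one (the lettered set). Each set thus held a single library of one group, and the sets differed in more genes than the groups did. Setd8 itself was at 73.9, 74.8 and 203 CPM in control 1, 2 and 3 and 48.9, 100.3 and 96.3 CPM in null 1, 2 and 3, lower in null when the set was in the model (log2 ratio -0.83, SE 0.17, edgeR adjusted p = 0.00911). The ranges of its level overlapped between the groups. The gene-level counts do not show whether these reads came from inside or outside the deleted part. The labels name fetal liver as the source and the design text fetal blood, and summed liver markers were at 0.207 to 4.85 CPM with Alb and Fgb at 0 in every library. Erythroid markers dominated in both groups, with Alas2, the first enzyme of erythroid heme synthesis, at 2918, 3016 and 2288 CPM in control 1, 2 and 3 and 3059.6, 2500.4 and 2527 CPM in null 1, 2 and 3. Summed erythroid markers were at 525716, 513292 and 347011 CPM in control 1, 2 and 3. In null 1, 2 and 3 the sum was 504761, 246142 and 213295 CPM, overlapping the controls. Of 11 erythroid markers tested, 3 were lower in null and 0 higher, against 4.16% and 8.65% of all genes tested. The part of this in the carrier values was not tested. Summed macrophage markers were at 2.503 to 10.1 CPM in controls and 33.4 to 92.7 CPM in null libraries, with 14 of the 15 listed genes in the files, 6 tested and 3 higher (Csf1r, Cd68 and C1qb). Vcam1 was at 0 in all null libraries, Timd4 at 0 in null 1 and 2, and Emr1 at 0 in null 1. Summed megakaryocyte markers were at 27.9 to 48.1 against 90.5 to 141 CPM, with 2 of 6 tested higher and Ppbp at 0 in the null libraries. Summed endothelial markers were at 0.479 to 1.58 against 7.39 to 23.1 CPM, with 3 of 3 tested higher, Emcn at 0 in every library and Cdh5 at 0 in null 1 and 2. Summed progenitor markers were at 2.77 to 9.53 against 20.5 to 91.2 CPM, with 1 of 4 tested higher and Kit at 0 in null 2. Summed mesenchymal and epithelial markers were at 0.889 to 4.46 against 9.15 to 23.7 CPM, with 1 of 3 tested higher and Pdgfrb at 0 in the null libraries. The part of such cells in the carrier values below was not tested. Summed transcripts of 4 Y-linked genes were at 117 CPM in control 1, at 0.479 and 0 CPM in control 2 and 3, and at 164, 137 and 120.4 CPM in null 1, 2 and 3. Embryo sex thus moved with the group in part, and its part in the results was not tested. Of the carriers, 7 lie on the X chromosome and none of the 19 that passed the test lies on X or Y.

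By level, the carriers of control erythroblasts were led by a few genes. Per kilobase of exon, the control mean was highest for Slc25a5, the main exchanger of ADP and ATP of the mitochondrial inner membrane in proliferating cells, at 1718 CPM per kb. The next levels per kb were those of the glutamine carrier Slc38a5 at 181, Slc43a3 at 132, the zinc and manganese importer Slc39a8 at 122, the nucleoside carrier Slc29a1 at 93.8 and the neutral amino acid carrier Slc43a1 at 90.97 CPM per kb. Slc20a1 (phosphate), Slc35a4, Slc25a3 (mitochondrial phosphate) and Slc2a1 (glucose) followed at 82.6, 70.03, 65.7 and 51.9 CPM per kb. The SD over the 3 control libraries was 848 for Slc25a5 and 129 for Slc39a8, both of which differed between the title sets, so their places in this order are loose. All 176 genes together took 7059, 7424 and 7078 CPM in control 1, 2 and 3 and 7452, 7075 and 7091 CPM in null 1, 2 and 3. The summed level thus overlapped between the groups.

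Null was compared with control by edgeR's quasi-likelihood test in a model of title set and group, with Benjamini-Hochberg adjustment over all 10512 genes with enough reads, at an adjusted p of 0.05. Of the 166 carriers tested, 10 were higher in null (6.02%, against 8.65% of all genes tested) and 9 were lower (5.42%, against 4.16%). Slc39a4 and Slc43a2 had all or nearly all of their reads in null and Slc29a2 in control, so that they entered through the group where they are high and their direction supports nothing; without them 8 were higher and 8 lower. The carriers higher in null were Slc39a4, Slc43a2, Slc26a2, Slc16a3, Slc25a4, Slc19a2, Slc35d1, Slc25a20, Slc48a1 and Slc25a11. Those that fell were Slc29a2, Slc43a1, Slc6a9, Slc7a5, Slc29a1, Slc7a1, Slc30a10, Slc35c2 and Slc39a8. For 31 of the 166 carriers, each of the 3 null libraries exceeded each of the 3 controls (18.7%, against 14.9% of all genes tested), and for 12 each was lower (7.23%, against 9.16%). Slc39a4, Slc43a2, Slc38a4, Slc26a11 and Slc11a1 among the former had all or nearly all of their reads in null, and Slc29a2 among the latter in control. Such genes entered through a single group, so their place in these counts supports nothing. The shares were near those of all genes. In bulk RNA, fewer cells of a type and less RNA per cell cannot be told apart.

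**Figure D1:**
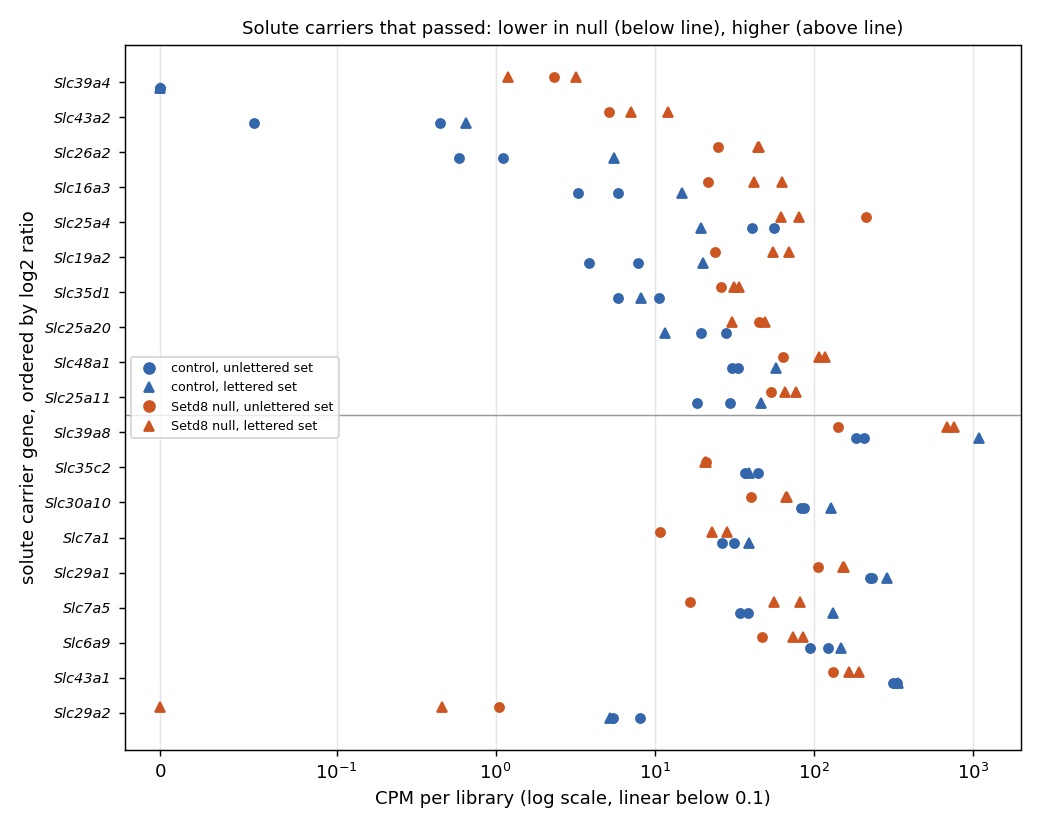
CPM (log axis, linear below 0.1) of the 19 carriers that passed the test, ordered by log2 ratio, with 1 point per library, blue for control and orange for Setd8 null, circles for the unlettered and triangles for the lettered set. The 10 genes above the line were higher in null and the 9 below it lower. For Slc39a8 and Slc7a5 the groups overlap, and the lettered libraries of both groups lie high.

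Within the title sets, the log2 ratio of null to control had the same sign in both for 121 of the 166 carriers (72.9%, against 68.6% of all genes tested), being above 0 in both for 79 and below in both for 42. The median log2 ratio of the tested carriers was 0.36 with the set in the model, 0.31 within the unlettered and 0.20 within the lettered set, and that of all genes tested was 0.04. Without the filter on low counts these medians were 0.35 for the 176 carriers and 0.20 for all genes with at least 1 count. The ratio differed between the sets for 0 carriers by edgeR's test of the interaction (smallest adjusted p 0.568), and 0.00951% of all genes passed. In the same edgeR test 9 carriers had an unadjusted p under 0.05 (5.42%, against 7.21% of all genes tested). This interaction test had 2 residual degrees of freedom. With group as the only term, 0 carriers passed in either direction by edgeR (background 1.14% higher and 0.00951% lower), 30 had an unadjusted p under 0.05, 20 of them higher and 10 lower (background 10.6% and 4.99%). DESeq2 with the set as a term called 24 of 176 carriers higher and 14 lower (13.6% and 7.95%, against 11.3% and 7.49% of all genes with an adjusted p). The calls therefore rest on the title set being in the model. Leaving out 1 library at a time left 2 to 14 carriers higher and 2 to 13 lower, the fewest (2 and 2) without null 1, after which the unlettered set holds no null library. All genes moved likewise, from 1.49% higher and 0.368% lower without null 1 to 7.91% and 6.68% without null 3, where the most carriers passed. The number lower was 4 without control 3 (1.62% of all genes) and 5 without control 2 (1.92%) or without null 2 (2.13%).

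**Figure D2:**
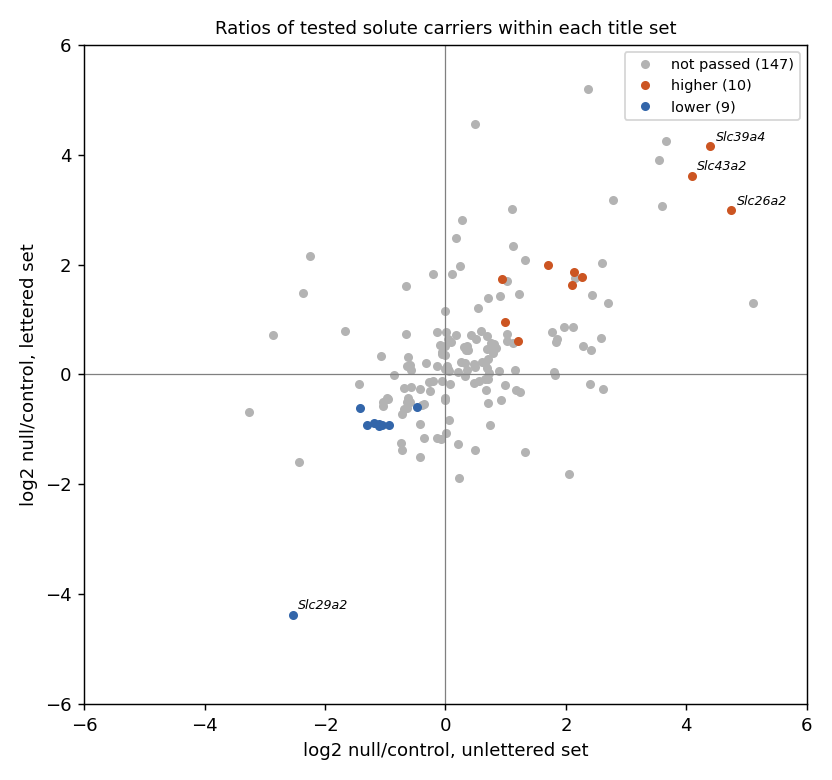
Log2 ratio of null to control (from mean log2 CPM, prior count 2) within the unlettered set (x axis; 2 control libraries and 1 null) and the lettered set (y axis; 1 control and 2 null) for the 166 tested carriers, 1 point per gene. The 10 orange and 9 blue points that passed lie at the upper right and lower left, with the same sign in both sets, and the other 147 are grey.

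Promoters were set side by side for carriers that moved in opposite directions. RefSeq's promoter table (GRCm38.p6) held 136 of the 176 carriers and 15 of the 19 that passed; Slc48a1 is among those without an entry. The 250 bases before the start are printed 5′ to 3′ on the gene's strand for the 2 higher and the 2 lower carriers with the largest change among the 6 whose window touches no annotated exon. They are shown because Slc19a2 and Slc35d1 rose while Slc29a1 and Slc7a1 fell, and capitals mark matches to a motif searched.
Slc19a2, chr1:164248796-164249045, plus strand: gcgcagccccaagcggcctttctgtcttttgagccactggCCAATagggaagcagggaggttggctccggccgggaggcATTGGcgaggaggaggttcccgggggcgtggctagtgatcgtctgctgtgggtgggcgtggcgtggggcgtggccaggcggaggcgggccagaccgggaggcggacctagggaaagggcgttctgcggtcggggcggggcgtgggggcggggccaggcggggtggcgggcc
Slc35d1, chr4:103215177-103215426, minus strand: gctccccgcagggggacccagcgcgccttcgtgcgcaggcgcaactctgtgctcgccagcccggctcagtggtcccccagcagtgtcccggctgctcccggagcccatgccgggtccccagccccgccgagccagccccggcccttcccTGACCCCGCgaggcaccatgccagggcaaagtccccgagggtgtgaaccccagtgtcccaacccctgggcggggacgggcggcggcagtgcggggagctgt
Slc29a1, chr17:45599619-45599868, minus strand: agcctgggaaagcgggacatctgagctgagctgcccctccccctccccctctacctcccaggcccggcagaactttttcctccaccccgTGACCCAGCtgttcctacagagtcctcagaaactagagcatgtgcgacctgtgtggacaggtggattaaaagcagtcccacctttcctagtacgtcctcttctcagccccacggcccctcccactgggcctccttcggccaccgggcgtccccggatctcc
Slc7a1, chr5:148399905-148400154, minus strand: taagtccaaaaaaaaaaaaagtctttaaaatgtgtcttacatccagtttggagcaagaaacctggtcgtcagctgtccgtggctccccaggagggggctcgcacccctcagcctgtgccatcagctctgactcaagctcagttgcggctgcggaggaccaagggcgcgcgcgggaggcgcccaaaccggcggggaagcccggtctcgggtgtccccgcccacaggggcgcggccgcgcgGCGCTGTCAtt

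The 4 motifs were searched on both strands, and none of them overlapped another in these windows. They were AGATAA (the GATA factors of erythroid cells), CACGTG (the E-box of Myc and other factors), TGACNNNGC (the core bound by Nrf2 with small Maf proteins) and CCAAT (the site of NF-Y). Slc19a2 held CCAAT at bases 210 to 206 before the start and its reverse at 171 to 167. A single TGACNNNGC lay at bases 101 to 93 in Slc35d1, 161 to 153 in Slc29a1 and 11 to 3 in Slc7a1, in the last as its reverse complement. The table holds 8 windows for Slc29a1, 2 of them with TGACNNNGC, and 2 for Slc7a1, 1 of them with it; the most upstream one without an exon is printed. AGATAA was found in 6.59% of the carriers' promoters and 9.99% of all promoters of the table, CACGTG in 14.8% and 6.02%, TGACNNNGC in 17.6% and 10.2%, and CCAAT in 32.4% and 33.8%. The motifs were chosen with the passing carriers known, and the matches describe letters only.

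Class counts from here on stand beside the shares of all genes tested, 8.65% higher and 4.16% lower by edgeR. At an unadjusted p under 0.05 by edgeR those shares were 16.4% and 11.5%. At an adjusted p under 0.05 by DESeq2 they were 11.3% and 7.49%, and DESeq2 counts below use its adjusted p. Of 28 amino acid carriers tested, 4 were lower (Slc43a1, Slc6a9, Slc7a5 and Slc7a1), 1 was higher (Slc43a2) and 23 did not pass. The class median log2 ratio was 0.35. Slc43a2 had nearly all of its reads in null, so its direction supports nothing. Slc43a1, a uniporter of leucine and other large neutral amino acids, was at 333, 315 and 339 CPM in control 1, 2 and 3 and 132, 167 and 193 CPM in null 1, 2 and 3. All null libraries lay below all controls, with a mean of 329 ± 12.2 CPM in control and 164 ± 30.9 in null (SD, n = 3). Slc43a1 was 2.15-fold lower (log2 ratio -1.10, SE 0.16, edgeR adjusted p = 0.00146) and passed without any 1 library as well. Its relative Slc43a2, with the same kind of substrate, was at 0.445, 0.0533 and 0.651 CPM in control 1, 2 and 3 and 5.14, 12.2 and 7.08 CPM in null 1, 2 and 3. Every null library lay above every control, from a control level close to 0 to a null level that stayed far below that of Slc43a1 in counts. The log2 ratio of Slc43a2 was 4.22 (SE 0.83, edgeR adjusted p = 0.00733; 0.178 without null 1), and an annotated gene overlaps its exons on the opposite strand. Macrophage and endothelial markers had a like course, near 0 in controls and present in null, and their part was not tested. The remaining member of the family, Slc43a3, known for purine nucleobase transport, was at 349.9, 303 and 369 CPM in control 1, 2 and 3 and 337, 396 and 391 CPM in null 1, 2 and 3 and did not pass (log2 ratio 0.07, SE 0.15, edgeR adjusted p = 0.805).

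Slc6a9, the glycine carrier that feeds heme synthesis, was at 94.7, 123 and 148 CPM in control 1, 2 and 3 and 47.2, 74.1 and 85.5 CPM in null 1, 2 and 3. The null libraries all lay below the controls, the highest null at 85.5 and the lowest control at 94.7 CPM. Slc6a9 was 2.07-fold lower (log2 ratio -1.05, SE 0.19, edgeR adjusted p = 0.00456; 0.0988 without null 1), and 2 annotated genes overlap its exons on the opposite strand. Slc7a5, the light chain of the main exchanger of large neutral amino acids, was at 34.4, 38.5 and 132 CPM in control 1, 2 and 3 and 16.8, 56.6 and 82.7 CPM in null 1, 2 and 3. The groups overlapped, since the lettered libraries were the highest of both, and null was lower within each set (log2 ratio -1.11 unlettered, -0.95 lettered). With the set in the model Slc7a5 was 2.03-fold lower (log2 ratio -1.02, SE 0.22, edgeR adjusted p = 0.0108), and the call was lost without null 1 (0.14) and without control 3 (0.0799). Its heavy chain Slc3a2, which pairs with several family 7 light chains, was at 38.98, 57.5 and 144 CPM in control 1, 2 and 3 and 60.2, 218 and 176 CPM in null 1, 2 and 3. Slc3a2 did not pass, and its log2 ratio was 0.38 (SE 0.19, edgeR adjusted p = 0.228). Slc7a1, a carrier of arginine and lysine whose promoter is printed above, was at 31.4, 26.7 and 39.02 CPM in control 1, 2 and 3 and 10.8, 23.1 and 28.5 CPM in null 1, 2 and 3. Null 3 lay above control 2 and the other null libraries below all controls. Slc7a1 was 2.002-fold lower (log2 ratio -1.001, SE 0.30, edgeR adjusted p = 0.0477), a call at the edge of the threshold that held in 1 of the 6 fits with a library left out, that without null 3 (adjusted p 0.0917 without control 2, 0.106 without control 1, 0.0635 without control 3, 0.413 without null 1 and 0.0784 without null 2).

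The other amino acid carriers named by rule did not pass. Slc38a5, the most abundant of the class, was at 375, 416 and 416 CPM in control 1, 2 and 3 and 552, 447 and 462 CPM in null 1, 2 and 3, each null above each control, with a log2 ratio of 0.30 (SE 0.15, edgeR adjusted p = 0.214). Slc38a2, a sodium-coupled carrier of small neutral amino acids, had a mean of 73.04 ± 9.34 CPM in control and 51.96 ± 16.7 in null (SD, n = 3; log2 ratio -0.69, edgeR adjusted p = 0.0625). Slc38a2 passed as lower with RLE scaling (edgeR adjusted p = 0.0491), TMM without globin genes (0.0452), no filter (0.022), without null 3 (0.0176) and by DESeq2 (0.0142). With group alone or without any other single library it did not. Slc1a5, a glutamine exchanger, was at 25.8 ± 7.23 and 28.3 ± 10.2 CPM (log2 ratio -0.07, edgeR adjusted p = 0.906), and its ratio was above 0 with group alone (0.13). Classes were set by family, so that Slc43a3 is counted here and Slc16a10 is not. Summed over all 30 members of the class, the level was 1488, 1506 and 1853 CPM in control 1, 2 and 3 and 1483, 1674 and 1722 CPM in null 1, 2 and 3. The class total overlapped between groups, though 4 single carriers were lower.

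**Figure D3:**
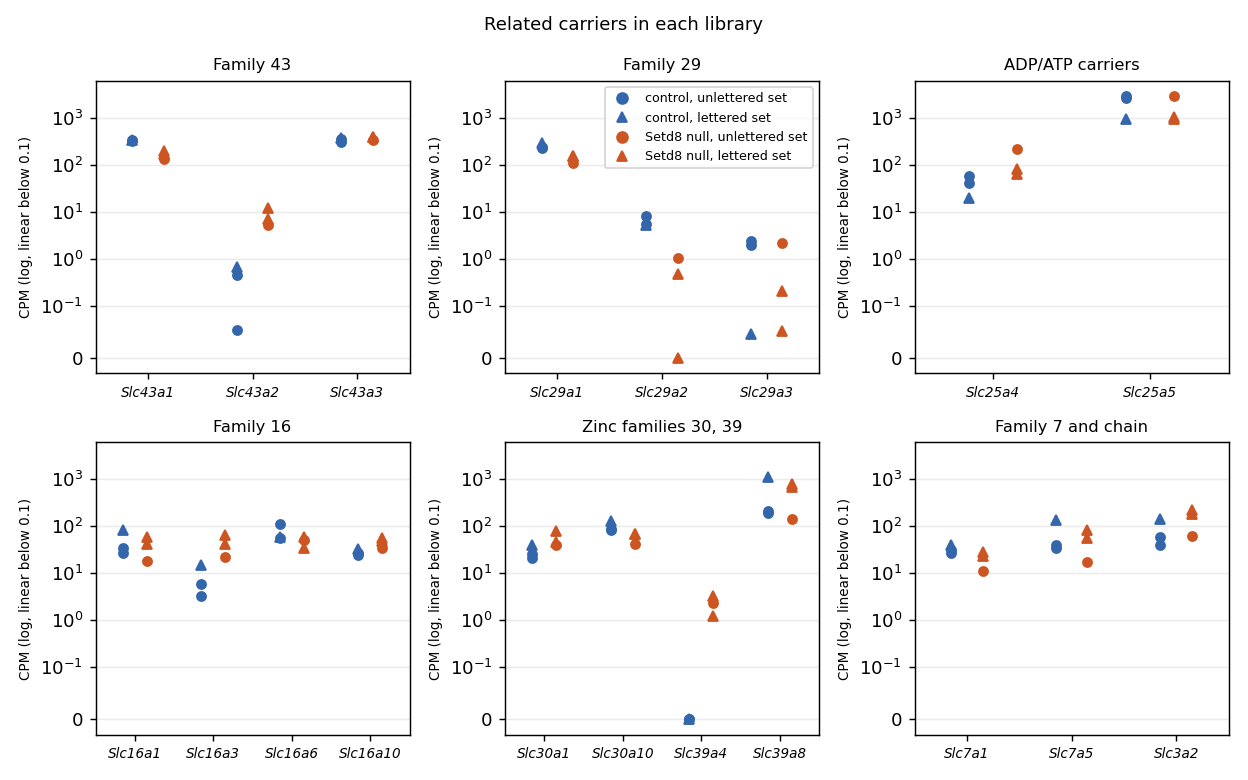
CPM (log axis, linear below 0.1) per library for related carriers, with blue for control, orange for Setd8 null, circles for the unlettered and triangles for the lettered set. Slc43a1 was lower in null, Slc25a4 was higher in null where Slc25a5 followed the title set, and Slc39a4 was at 0 in all 3 controls. Slc43a2 and Slc39a4 had all or nearly all of their reads in null and Slc29a2 in control, so their direction supports nothing.

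Of 4 nucleoside carriers tested, 2 were lower (4.16% of all genes tested were), with a class median of -0.27. Of these, Slc29a2 had nearly all of its reads in control, so that its direction supports nothing. Slc29a1, the equilibrative nucleoside carrier of the plasma membrane, was at 225, 234 and 289 CPM in control 1, 2 and 3 and 107, 152 and 154 CPM in null 1, 2 and 3. All null libraries lay well below all controls, the highest null at 154 CPM and the lowest control at 225 CPM. Slc29a1 was 2.01-fold lower (log2 ratio -1.01, SE 0.15, edgeR adjusted p = 0.00156), near the same within the unlettered (-1.11) and lettered set (-0.91), and passed without any 1 library. An annotated gene overlaps its exons on the opposite strand. Slc29a2, the other broadly acting family member, was at 5.48, 8.09 and 5.26 CPM in control 1, 2 and 3 and 1.05, 0.462 and 0 CPM in null 1, 2 and 3. No null library reached the lowest control. Its log2 ratio was -3.54 (SE 1.02, edgeR adjusted p = 0.0413), a call that was lost without any of the libraries except null 3 (adjusted p 0.0789, 0.115 and 0.357 without control 1, 2 and 3, 0.142 and 0.0763 without null 1 and 2), with the log2 ratio at -2.70 without control 3 and -4.47 without null 1. Slc29a3, of intracellular membranes, and the sodium-coupled Slc28a1 did not pass and reached at most 2.34 and 3.80 CPM in any library. The summed level of the 4 carriers was 233, 245 and 294 CPM in control 1, 2 and 3 and 113, 153 and 156 CPM in null 1, 2 and 3, without overlap. Nearly all of it was Slc29a1.

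Among vitamin, choline and heme carriers, 2 of 11 were higher (8.65% of all genes tested were) and 9 did not pass. The class median was 0.46, and 1 was lower by DESeq2. Slc19a2, a thiamine importer whose promoter is printed above, was at 7.85, 3.89 and 20.1 CPM in control 1, 2 and 3 and 24.1, 55.8 and 70.5 CPM in null 1, 2 and 3. The lowest null library, at 24.1 CPM, lay above the highest control, at 20.1 CPM, and within each set the distance was wider. Slc19a2 was 3.62-fold higher (log2 ratio 1.86, SE 0.31, edgeR adjusted p = 0.00279; 0.119 without null 1). Slc48a1, which moves heme out of endosomes and lysosomes into the cytosol, was at 30.5, 33.5 and 57.8 CPM in control 1, 2 and 3 and 63.9, 108 and 117 CPM in null 1, 2 and 3. The groups did not overlap and the lettered libraries were the higher of each group. Slc48a1 was 1.97-fold higher (log2 ratio 0.98, SE 0.18, edgeR adjusted p = 0.00521; 0.103 without null 1), with ratios of 0.996 and 0.96 in the unlettered and lettered set. Exons of Hdac7 overlap it on the opposite strand. The reduced folate carrier Slc19a1 was at 39.3, 55.1 and 49.5 CPM in control 1, 2 and 3 and 28.8, 45.2 and 38.1 CPM in null 1, 2 and 3 and did not pass (log2 ratio -0.48, SE 0.25, edgeR adjusted p = 0.231). Slc5a6, the sodium-dependent carrier of biotin and pantothenate, named after its values were seen, was at 11.6, 15.8 and 12.4 CPM in control 1, 2 and 3 and 2.396, 2.26 and 7.13 CPM in null 1, 2 and 3. Its null libraries all lay below the controls, and with an adjusted p of 0.0521 by edgeR (log2 ratio -1.94, SE 0.59) it stood just outside the threshold.

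Of 23 tested carriers of zinc, copper and other metals, 1 was higher and 2 were lower (class median 0.24), against 8.65% and 4.16% of all genes tested. Slc39a4, a zinc importer best known from the gut, had no read in any control and was at 2.34, 3.18 and 1.19 CPM in null 1, 2 and 3. With 125 null counts, its level was at least 35.03-fold higher against 3 counts over the control group, which covers counting error only. Since it was chosen and passed the filter through null reads alone, its direction is a description. Its edgeR value was below the threshold (edgeR adjusted p = 0.019), and the call was lost without any of the libraries except null 3 (adjusted p 0.0542, 0.0592 and 0.0775 without control 1, 2 and 3, 0.198 and 0.0741 without null 1 and 2). Slc30a10, a manganese exporter, was at 86.5, 82.8 and 128 CPM in control 1, 2 and 3 and 40.6, 68.3 and 67.3 CPM in null 1, 2 and 3. The highest null, at 68.3 CPM, lay below the lowest control, at 82.8 CPM. Slc30a10 was 1.98-fold lower (log2 ratio -0.99, SE 0.17, edgeR adjusted p = 0.00396; 0.0684 without null 1), and an annotated gene overlaps its exons on the opposite strand. Slc39a8, an importer of zinc and manganese and the most abundant metal carrier per kilobase, was at 207, 185 and 1102 CPM in control 1, 2 and 3 and 142, 688 and 769 CPM in null 1, 2 and 3. The title set moved it far more than the group did (log2 ratio of lettered to unlettered 2.43, edgeR adjusted p = 8.51e-07), and the groups overlapped. Within each set null was lower (-0.47 unlettered, -0.60 lettered), and with the set in the model Slc39a8 was 1.45-fold lower (log2 ratio -0.53, SE 0.15, edgeR adjusted p = 0.0353). That call was lost without any of the libraries except null 3 (adjusted p 0.0941, 0.0731 and 0.148 without control 1, 2 and 3, 0.117 and 0.114 without null 1 and 2), and with group alone the ratio turned to 0.10 (edgeR adjusted p = 0.977).

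The zinc exporter Slc30a1, a gene known to be induced by zinc, was at 25.9, 20.6 and 39.9 CPM in control 1, 2 and 3 and 39.3, 77.6 and 45.8 CPM in null 1, 2 and 3. Null 1 lay below control 3, and the log2 ratio of 0.69 (SE 0.26, edgeR adjusted p = 0.102) did not pass. The zinc importer Slc39a10 was at 2.37, 1.54 and 0.1395 CPM in control 1, 2 and 3 and 2.75, 5.699 and 6.15 CPM in null 1, 2 and 3, above every control in each null library but with few reads, and did not pass (log2 ratio 2.68, SE 1.39, edgeR adjusted p = 0.238). Among the refits Slc39a10 passed as higher by DESeq2 only (DESeq2 adjusted p = 0.034). Of family 39 (zinc uptake) 1 of 11 was higher and 1 lower, and of family 30 (mainly zinc efflux) 1 of 7 was lower. Slc39a1, another zinc importer, named after its values were seen, was at 35.3, 77.8 and 1.9998 CPM in control 1, 2 and 3 and 51.8, 1.49 and 1.34 CPM in null 1, 2 and 3. It was far higher in the 3 unlettered than in the 3 lettered libraries, whatever the group. The macrophage metal carrier Slc11a1, also named after its values were seen, was at 0.296, 0.266 and 0.0465 CPM in control 1, 2 and 3 and 2.63, 1.85 and 0.982 CPM in null 1, 2 and 3 (log2 ratio 3.83, SE 1.28, edgeR adjusted p = 0.0744). Slc11a1 had nearly all of its reads in null, so its direction supports nothing.

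Of 5 tested monocarboxylate and carboxylate carriers, 1 was higher (class median -0.07). Slc16a3, the proton-coupled lactate exporter of glycolytic cells, was at 5.93, 3.302 and 14.98 CPM in control 1, 2 and 3 and 21.7, 62.9 and 42.02 CPM in null 1, 2 and 3. Each null library exceeded each control, and within each set the null level was several times that of control (log2 ratio 2.27 unlettered, 1.77 lettered). Slc16a3 was 4.09-fold higher (log2 ratio 2.03, SE 0.32, edgeR adjusted p = 0.00208; 0.107 without null 1). Slc16a1, the widely expressed lactate and pyruvate carrier of the same family, was at 34.2, 26.5 and 81.3 CPM in control 1, 2 and 3 and 18.3, 41.5 and 58.1 CPM in null 1, 2 and 3. It was lower in null within each set (-0.72 and -0.73) but did not pass (log2 ratio -0.72, SE 0.23, edgeR adjusted p = 0.0682). Slc16a1 passed as lower without the filter (edgeR adjusted p = 0.0351), without null 3 (0.0341) and by DESeq2 (0.0195), but not in the other refits. Slc16a10, a carrier of aromatic amino acids, was at 23.9, 27.3 and 31.7 CPM in control 1, 2 and 3 and 34.2, 56.3 and 48.2 CPM in null 1, 2 and 3 and Slc16a6 at 108, 55.4 and 59.6 CPM in control 1, 2 and 3 and 50.4, 33.4 and 59.2 CPM in null 1, 2 and 3. Neither passed (edgeR adjusted p = 0.136 and 0.293).

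Of 10 tested carriers of glucose and other sugars, 0 passed by edgeR (class median 0.50). At an unadjusted p under 0.05 by edgeR, 2 were higher, against 16.4% of all genes tested. By DESeq2 3 were higher, against 11.3% of all genes. Slc2a1, a glucose carrier of most cell types that is abundant in red cell precursors, was at 152, 170.4 and 185 CPM in control 1, 2 and 3 and 229.7, 345 and 243 CPM in null 1, 2 and 3. Each null library exceeded each control, by 1.503-fold in the model (log2 ratio 0.59, SE 0.18), with an edgeR adjusted p of 0.0503 just outside the threshold. It passed without the filter (0.0332), by DESeq2 (0.0351) and without null 3 (0.0381). An annotated gene overlaps its exons on the opposite strand. Slc2a3, a glucose carrier of high affinity, was at 14.7, 15.9 and 15.95 CPM in control 1, 2 and 3 and 15.8, 25.9 and 23.8 CPM in null 1, 2 and 3, with null 1 between the controls (log2 ratio 0.35, SE 0.31, edgeR adjusted p = 0.517). The fructose carrier Slc2a5 had no control read and 74 null counts, at least 20.7-fold more against 3 counts over the control group, or 9.46-fold without null 2, which held 52 of them, and was too low for the test. Over the 12 members of the class the summed level was 203, 217 and 248 CPM in control 1, 2 and 3 and 297, 463 and 340.3 CPM in null 1, 2 and 3, without overlap and mostly from Slc2a1.

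Of 30 tested carriers of family 25, nearly all of them mitochondrial, 3 were higher, against 8.65% of all genes tested (class median 0.41). By edgeR 0 of them were lower, against 4.16% of all genes tested. At an unadjusted p under 0.05 by edgeR, 6 were higher and 2 lower, against 16.4% and 11.5% of all genes tested. By DESeq2 1 was lower, against 7.49% of all genes. Slc25a4, the exchanger of ADP and ATP that prevails in muscle and heart, was at 41.05, 56.2 and 19.5 CPM in control 1, 2 and 3 and 212, 80.8 and 62.3 CPM in null 1, 2 and 3. The lettered libraries were the lower in each group, and the lowest null, at 62.3 CPM, lay above the highest control, at 56.2 CPM. Slc25a4 was 4.001-fold higher (log2 ratio 2.0004, SE 0.21, edgeR adjusted p = 0.000143), with 2.14 within the unlettered and 1.86 within the lettered set, and passed without any 1 library. Its paralog Slc25a5, the most abundant carrier of all, was at 2612, 2855 and 925 CPM in control 1, 2 and 3 and 2857, 916 and 1020.4 CPM in null 1, 2 and 3. Slc25a5 followed the title set (log2 ratio of lettered to unlettered -1.56, edgeR adjusted p = 1.17e-05) and within the sets null and control were close (0.07 and 0.06; with the set in the model log2 ratio 0.06, SE 0.14, edgeR adjusted p = 0.817). The coding sequences of both are alike and the genome holds processed copies, so reads of each may have been lost or shared, and their values are uncertain to that extent. With group alone the log2 ratio of Slc25a5 was -0.42.

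Slc25a20, which exchanges acylcarnitine for carnitine so that fatty acids enter the matrix, was at 28.3, 19.5 and 11.6 CPM in control 1, 2 and 3 and 45.1, 49.5 and 30.6 CPM in null 1, 2 and 3. The groups did not overlap, though null 3 and control 1 lay close. Slc25a20 was 2.56-fold higher (log2 ratio 1.35, SE 0.33, edgeR adjusted p = 0.0203), and the call was lost without control 2 (adjusted p 0.0578), control 3 (0.193), null 1 (0.0981) or null 2 (0.0562). Slc25a11, which exchanges oxoglutarate for malate in the malate-aspartate shuttle, was at 18.4, 29.8 and 46.7 CPM in control 1, 2 and 3 and 54.1, 77.7 and 65.95 CPM in null 1, 2 and 3. Each null library lay above each control. Slc25a11 was 1.85-fold higher (log2 ratio 0.89, SE 0.24, edgeR adjusted p = 0.0351), a call lost without any of the libraries except null 3 (adjusted p 0.0936, 0.0532 and 0.0683 without control 1, 2 and 3, 0.417 and 0.113 without null 1 and 2). The aspartate-glutamate carriers of the same shuttle did not pass: Slc25a12 had a log2 ratio of 0.41 (edgeR adjusted p = 0.41) and Slc25a13 one of -0.66 (edgeR adjusted p = 0.0803), its null libraries at 27.6, 23.9 and 24.8 CPM all below controls at 44.8, 44.7 and 37.6 CPM. Both were named after their values were seen.

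Slc25a3, the phosphate carrier of the inner membrane, was at 101, 103 and 179 CPM in control 1, 2 and 3 and 130.3, 240.1 and 276 CPM in null 1, 2 and 3. Null 1 lay between the controls, and the log2 ratio of 0.44 (SE 0.16, edgeR adjusted p = 0.0894) did not pass. Slc25a17, the family's nucleotide and cofactor carrier of peroxisomes, named after its values were seen, was at 74.4, 80.8 and 56.9 CPM in control 1, 2 and 3 and 134, 77.4 and 71.1 CPM in null 1, 2 and 3 and just missed the threshold (log2 ratio 0.59, SE 0.18, edgeR adjusted p = 0.0502). Slc25a46, a protein of the outer membrane with a carrier fold, and Slc25a40 were named by rule in the remaining group of the family. Slc25a46 was at 13.6, 17.7 and 61.4 CPM in control 1, 2 and 3 and 14.02, 60.5 and 77.5 CPM in null 1, 2 and 3, high in the lettered libraries of both groups, with a log2 ratio of 0.00 (SE 0.24, edgeR adjusted p = 0.994). Slc25a40 was at 3.56, 7.99 and 5.12 CPM in control 1, 2 and 3 and 3.97, 1.08 and 2.74 CPM in null 1, 2 and 3 (log2 ratio -0.98, SE 0.68, edgeR adjusted p = 0.393).

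**Figure D4:**
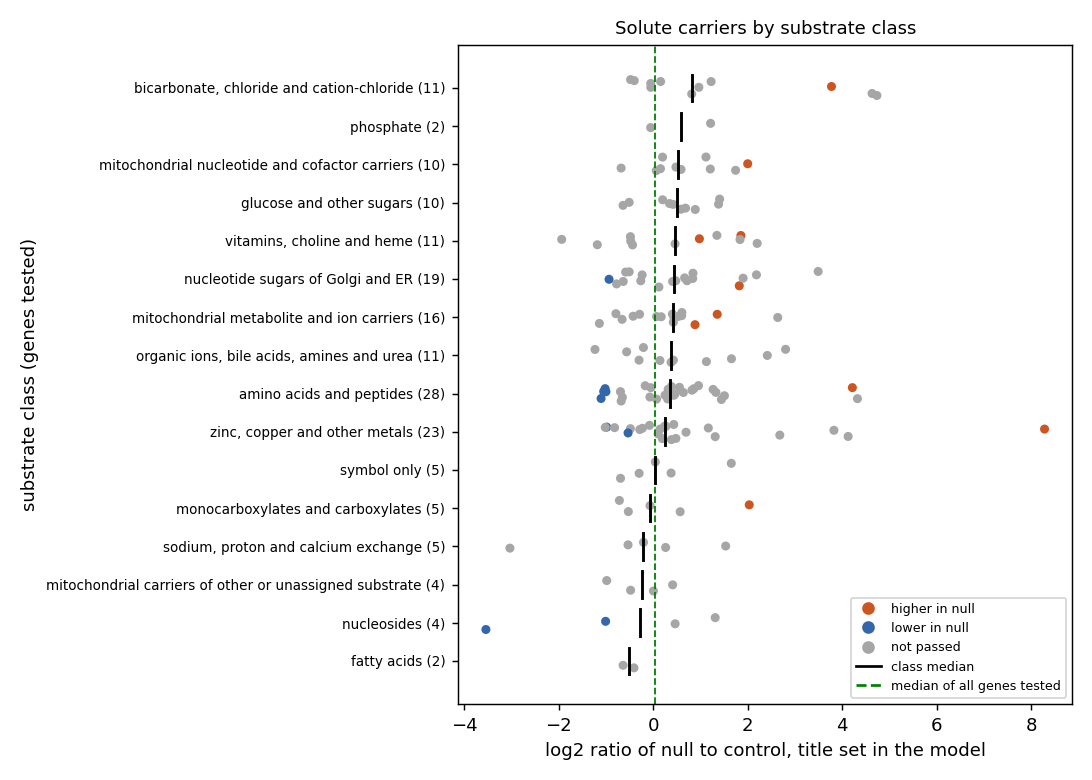
Log2 ratio of null to control with the title set in the model (x axis) for the 166 tested carriers by substrate class (y axis, genes tested in brackets), 1 point per gene, orange for higher, blue for lower and grey for not passed, with black bars for class medians and a green dashed line for the median of all genes tested. The nucleotide sugar class holds 1 orange and 1 blue point among 19. The only orange point is Slc43a2 among the amino acid carriers and Slc39a4 among the metal carriers. The nucleoside class holds 2 blue and 0 orange points, with Slc29a2 among the blue. These 3 genes had all or nearly all of their reads in the group where they are high, so their direction supports nothing.

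Of 11 tested carriers of bicarbonate, chloride and cation-chloride, 1 was higher and 10 did not pass (class median 0.81; 3 higher by DESeq2). Slc26a2, which imports sulfate for the sulfation of proteoglycans, was at 0.593, 1.12 and 5.58 CPM in control 1, 2 and 3 and 25.1, 44.7 and 45.2 CPM in null 1, 2 and 3. Every null library stood far above every control. Slc26a2 was 13.7-fold higher (log2 ratio 3.77, SE 0.42, edgeR adjusted p = 0.000218) and passed without any 1 library, its log2 ratio 4.73 without control 3 and 3.001 without null 1. The ratio was 4.75 within the unlettered and 2.98 within the lettered set, a difference that did not pass the test of the interaction (edgeR adjusted p = 0.616). Slc12a2, a carrier of sodium, potassium and chloride, was at 5.04, 1.33 and 5.63 CPM in control 1, 2 and 3 and 5.08, 2.77 and 5.89 CPM in null 1, 2 and 3, overlapping throughout (log2 ratio 0.16, SE 0.70, edgeR adjusted p = 0.917).

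Carriers of nucleotide sugars feed glycosylation in the Golgi and endoplasmic reticulum. Of 19 tested, 1 was higher and 1 lower, against 8.65% and 4.16% of all genes tested (class median 0.45). Slc35d1, a carrier of UDP-glucuronic acid and UDP-N-acetylgalactosamine whose promoter is printed above, was at 5.93, 10.7 and 8.19 CPM in control 1, 2 and 3 and 26.2, 34.1 and 31.6 CPM in null 1, 2 and 3. The groups were far apart and the sets close together. Slc35d1 was 3.54-fold higher (log2 ratio 1.82, SE 0.33, edgeR adjusted p = 0.00463), the call lost without null 1 (0.1) and without control 3 (0.0517). Slc35c2, linked to the fucosylation of Notch, was at 37.05, 44.5 and 39.4 CPM in control 1, 2 and 3 and 21.1, 20.7 and 20.99 CPM in null 1, 2 and 3. The 3 null libraries lay between 20.7 and 21.1 CPM, below all controls. Slc35c2 was 1.91-fold lower (log2 ratio -0.94, SE 0.24, edgeR adjusted p = 0.0256), and the call was lost without control 2 (adjusted p 0.0807), control 3 (0.129), null 1 (0.187) or null 2 (0.052). The UDP-galactose carrier Slc35a2 was at 7.26, 14.3 and 12.1 CPM in control 1, 2 and 3 and 20.7, 21.3 and 19.4 CPM in null 1, 2 and 3, each null above each control, and did not pass (log2 ratio 0.84, SE 0.35, edgeR adjusted p = 0.141). Slc35a4, the most abundant of the class, was at 199 ± 31.98 CPM in control and 166 ± 30.9 in null (SD, n = 3; log2 ratio -0.23, edgeR adjusted p = 0.505).

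The remaining classes had 0 carriers past the threshold by edgeR. Among carriers of organic ions and amines, 2 were higher and 1 lower at an unadjusted p under 0.05 by edgeR. By DESeq2 1 was higher at an adjusted p under 0.05. Among phosphate, sodium, fatty acid and other such genes there were 0 by either count. Among all genes the shares were 16.4% higher and 11.5% lower at an unadjusted p under 0.05 by edgeR, and 11.3% higher at an adjusted p under 0.05 by DESeq2. Of 11 carriers of organic ions and amines, Slc22a4, which takes up ergothioneine, was at 49.3, 42.6 and 45.995 CPM in control 1, 2 and 3 and 29.3, 27.9 and 38.1 CPM in null 1, 2 and 3, each null below each control (log2 ratio -0.56, SE 0.24, edgeR adjusted p = 0.146). The vesicular monoamine carrier Slc18a2 was at 26.8, 23.9 and 6.98 CPM in control 1, 2 and 3 and 29.9, 35.2 and 22.1 CPM in null 1, 2 and 3 (log2 ratio 1.13, SE 0.44, edgeR adjusted p = 0.117). Among the refits Slc18a2 passed as higher without the filter only (edgeR adjusted p = 0.031). Slc22a18 of the same class had no control read and 121 null counts, 99 of them in null 3 (5.12 CPM), at least 33.9-fold more against 3 counts over the control group, or 9.43-fold without null 3, and was too low for the test. Of the phosphate importers, Slc20a1 was at 336, 316 and 204 CPM in control 1, 2 and 3 and 262, 256 and 216 CPM in null 1, 2 and 3 and Slc20a2 at 0.593, 0.213 and 4.28 CPM in control 1, 2 and 3 and 2.86, 2.67 and 4.704 CPM in null 1, 2 and 3 (edgeR adjusted p = 0.882 and 0.445). The sodium-proton exchanger Slc9a8 had a log2 ratio of -0.21 (edgeR adjusted p = 0.737). Slc24a5, a cation exchanger of melanosomes named after its values were seen, was at 85.95, 1.49 and 1.395 CPM in control 1, 2 and 3 and 1.11, 0.565 and 1.19 CPM in null 1, 2 and 3, so that control 1 alone held nearly all its reads. Exons of Myef2 overlap those of Slc24a5 on the opposite strand, so the reads may not all be its own. The fatty acid carrier Slc27a4 was at 0.889, 1.86 and 16.6 CPM in control 1, 2 and 3 and 1.52, 8.01 and 5.84 CPM in null 1, 2 and 3 (log2 ratio -0.64, SE 0.57, edgeR adjusted p = 0.519). Among the 5 genes that are no carriers, Slc4a1ap and Slc2a4rg-ps had log2 ratios of 0.04 and -0.69 (edgeR adjusted p = 0.961 and 0.438).

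Genes whose products work with or beside the carriers were taken from a separate list. Of 54 in the files, 47 were tested, 6 were higher (Emb, Brp44l, Aqp8, Abcc5, Mt1 and Txnip) and 4 lower (Timm8a1, Timm10, Atp2b4 and Spns2), with a list median of -0.05. Of all genes tested 8.65% were higher and 4.16% lower. Bsg, the chaperone that brings Slc16a1 and Slc16a3 to the surface, was at 98.8, 122 and 596 CPM in control 1, 2 and 3 and 127, 569.8 and 539.9 CPM in null 1, 2 and 3 and followed the title set (null against control log2 ratio 0.05, SE 0.16, edgeR adjusted p = 0.885). The related chaperone Emb had 1 control read in all and was at 2.69, 4.88 and 12.4 CPM in null 1, 2 and 3 (edgeR adjusted p = 0.00363). Txnip, which promotes the removal of Slc2a1 from the surface, was at 2.37, 0.266 and 0.372 CPM in control 1, 2 and 3 and 27.1, 20.9 and 16.5 CPM in null 1, 2 and 3. All null libraries lay far above all controls (log2 ratio 5.05, SE 0.71, edgeR adjusted p = 0.00109). Emb and Txnip had nearly all of their reads in null and passed the filter on low counts through that group, so their direction supports nothing. Brp44l, a subunit of the mitochondrial pyruvate carrier, was at 156, 151 and 103 CPM in control 1, 2 and 3 and 304, 139.7 and 137 CPM in null 1, 2 and 3 (log2 ratio 0.71, SE 0.17, edgeR adjusted p = 0.0172). Its groups overlapped, the unlettered libraries being the higher. Timm8a1 and Timm10, chaperones that deliver carriers of family 25 to the inner membrane, had log2 ratios of -0.60 and -0.66 (edgeR adjusted p = 0.0299 and 0.0468). The metallothionein Mt1, which binds zinc and is induced by it, was at 2000.03, 1609 and 1330.2 CPM in control 1, 2 and 3 and 5114, 2276 and 1323 CPM in null 1, 2 and 3 (log2 ratio 0.97, SE 0.26, edgeR adjusted p = 0.035). Null 3 lay below control 1, 2 and 3.

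The title set itself, with the group in the model, separated 36 of the 166 carriers by edgeR (21.7%, against 28.5% of all genes tested), 30 higher and 6 lower in the lettered libraries. Of the 19 carriers that differed between null and control, 8 were also higher in the lettered set (Slc39a8, Slc7a5, Slc19a2, Slc26a2, Slc16a3, Slc48a1, Slc30a10 and Slc6a9) and Slc25a4 was lower. The other carriers lower in the lettered set were Slc39a1, Slc29a3, Slc7a14, Slc25a5 and Slc25a17. Slc7a14 was at 29.9, 38.2 and 7.91 CPM in control 1, 2 and 3 and 118, 9.34 and 7.08 CPM in null 1, 2 and 3, the smallest unadjusted p of the interaction among the carriers, and did not pass it (edgeR adjusted p = 0.568).

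10 of the 176 carriers had too few reads for the test. Slc25a18, Slc27a1, Slc6a13, Slc2a5 and Slc22a18 had every null library above every control, Slc25a30 every null below, and Slc6a15, Slc26a10, Slc2a9 and Slc13a4 overlapped. Those without overlap reached the minimum of 60 reads mostly through one group, which fixes their direction, and Slc2a5 in null 3 rested on 3 reads and Slc22a18 in null 2 on 7. None of the 10 exceeded 5.12 CPM in a library. The counts above therefore cover the 166 tested carriers and not all 176.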

How the data were processed

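Polyadenylated RNA of 3 control and 3 Setd8 null samples was measured. The values are gene counts that the authors deposited, 1 table of whole numbers per sample, not normalized. Per the submitters' processing notes, the tools were HTSeq 0.6.1, TopHat2 2.1.0, Trimmomatic 0.32, edgeR and FastQC, and the build mm9; options and strand setting are not given in the sources used. Reads of genes that overlap on opposite strands therefore cannot be told apart. Besides the carriers marked above, this holds for Slc30a1, Slc35a4, Slc20a1, Slc20a2, Slc16a6, Slc18a2, Slc25a46, Slc5a6 and Slc26a10. Summary lines naming no gene were kept out (reads without a feature were 42.9%, 7.72% and 6.07% of the totals of control 1, control 2 and null 1; the other tables held no such lines), and 25 symbols turned into dates were mapped back in those 3 tables.

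The tests used edgeR 4.0.16 in R 4.3.3 (filterByExpr, 10512 genes; TMM; estimateDisp; robust glmQLFit; glmQLFTest with title set and group, 2-sided; Benjamini-Hochberg at 0.05). With 3 residual degrees of freedom, the common biological coefficient of variation was 0.399 (with group alone, 4 and 0.613). The SE is the log2 ratio divided by the root of F. Nothing in the labels says that samples of a group came from separate embryos, so a p-value here sets a difference against the spread of these samples alone, in part perhaps technical. A floor of 3 counts equals 0.140 to 0.387 CPM. Levels per kb use exon unions of GENCODE vM21, and promoters RefSeq's table on GRCm38.p6; no coordinate was joined to the mm9 counts. The script was tested on simulated counts.

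Members, classes and lists were chosen with earlier results of these data known, and Slc7a6os was moved out of the amino acid class after the members were seen. Genes were named by rule: passing carriers, up to 15 per direction by size of the log2 ratio, the carrier with the most reads and that with the smallest p in each class, 20 fixed carriers, and carriers called for the interaction. Others are marked where named, and 2 carriers the rule named are not reported here. The alternatives were group alone, RLE scaling, TMM without 8 globin genes, no filter beyond 1 count, DESeq2 1.42.0, and leaving out each library.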

Additional observations from a re-analysis of the deposited data

How the results depend on the processing

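Named genes kept direction and side of the threshold in 407 of 506 refits of 46 genes; 61 were no longer past the threshold, 13 newly past it and 25 turned sign, Slc39a8 with group alone being the 1 passing carrier among these. No paired analysis was possible because the labels give no replicate numbers; those used here follow accession order and pair nothing. With group alone 0 carriers were higher and 0 lower by edgeR, in every class as well, and of the partner list 1 was higher and 0 lower. Without the filter 22 carriers were higher and 13 lower of 176 (1139 and 723 of 19008 genes, most of the added ones with few reads), and DESeq2 gave 24 higher and 14 lower (1361 and 906 of 12089 genes with an adjusted p). The no-filter fit gave 4 amino acid carriers higher, 3 chloride, 3 sugar, 2 nucleotide sugar, 2 organic ion and 2 metal carriers higher, and 1 monocarboxylate and 1 vitamin carrier lower. DESeq2 gave 3 amino acid, 3 chloride, 3 sugar, 2 mitochondrial nucleotide, 3 nucleotide sugar, 1 organic ion and 4 metal carriers higher, and 1 mitochondrial metabolite, 1 monocarboxylate and 1 vitamin carrier lower. RLE scaling gave 10 carriers higher and 12 lower of 166 (6.02% and 7.23%, against 8.3% and 4.95% of all genes). TMM without globin genes gave 10 higher and 12 lower of 167 (5.99% and 7.19%, against 8.11% and 5.14%). In both, Slc38a2 was newly lower and 1 vitamin carrier was lower. The cause of these shifts was not tested.

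With 1 library left out, 2 to 14 carriers were higher and 2 to 13 lower. By class, 0 to 2 amino acid carriers were higher and 1 to 5 lower, 1 to 2 chloride, 0 to 2 sugar and 0 to 2 mitochondrial metabolite carriers were higher, 0 to 1 monocarboxylate carriers were higher and 0 to 1 lower, and 1 to 2 nucleoside carriers were lower. Nucleotide sugar carriers were 0 to 2 higher and 0 to 1 lower, vitamin carriers 0 to 2 higher and 0 to 1 lower, metal carriers 0 to 1 higher and 0 to 3 lower, and partners 1 to 8 higher and 0 to 4 lower. Without null 1 the unlettered set holds no null library, and without control 3 the lettered set holds no control. All 19 passing carriers lost the call with group alone, and Slc25a4, Slc26a2, Slc29a1 and Slc43a1 kept it without any 1 library.

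The log2 ratio turned sign with group alone for Slc1a5 (0.13), Slc25a5 (-0.42) and Slc39a8 (0.098). That of Slc25a46 turned under RLE (-0.032), without globin genes (-0.048), without the filter (-0.041) and by DESeq2 (-0.040), and that of Slc4a1ap without globin genes (-0.0066), without the filter (-0.0016) and by DESeq2 (-0.00094). With 1 library left out the ratio ranged from -0.38 to 0.69 for Slc12a2, -0.32 to 0.018 for Slc1a5, -0.33 to 0.20 for Slc20a1, -0.22 to 2.89 for Slc20a2, -0.18 to 0.16 for Slc25a46, -0.048 to 0.079 for Slc25a5, -1.27 to 0.093 for Slc27a4, -0.59 to 0.095 for Slc35a4, -0.52 to 0.62 for Slc4a1ap and -0.62 to 0.17 for Slc9a8, none of which passed. In the shallowest library, control 1, 3 counts are 0.387 CPM, so that levels under that are not resolved there.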
